A study of Mus musculus with 15 samples.

Results

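Macrophage-like RAW 264.7 cells kept without RANKL until day 5 of culture were compared with the same cells at days 3 and 4. The comparison uses 5 of the series' 15 arrays, chosen by their labels: 1 array of control day 5, against 2 of control day 3 and 2 of control day 4. RAW 264.7 is a mouse line that turns into osteoclasts, the cells that resorb bone, when given the cytokine RANKL, and the control cells are those that never received it. Per the labels, all cells were grown in alpha MEM with serum, and RANKL or no RANKL was given in serum-free alpha MEM on days 0 and 3, so control cells at day 5 had been kept on for a further 2 days after the addition of day 3. All cells are of this 1 line and carry no named genetic change. Other arrays held control cells of day 1 (1 array) and day 2 (2 arrays), and RANKL cells of day 1 (1 array), day 2, day 4 and day 5 (2 arrays each), and the labels call the RANKL cells of days 4 and 5 multi-nuclear. The labels do not say whether replicate arrays came from separate cultures, so p-values measure the spread between these arrays, which may be technical.

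A macrophage line that goes on dividing in a dish can change its surroundings with time, because growing cells use up glucose and oxygen and release acid and cytokines. Macrophages answer danger signals through NF-kB by making chemokines, which draw in other leukocytes, and cytokines such as interleukin-1 beta. When oxygen is short, the factor HIF-1 raises genes for glucose uptake, glycolysis and blood vessel growth. As they mature, macrophages gain surface receptors, lysosomal enzymes and cholesterol transporters, and they divide less.

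With 1 array at day 5 there is no measure of spread at that time. The model that follows assumes that this array varies like the replicate arrays of the other groups. Values are MAS5 signals, linear hybridisation intensities, which were set to the log2 scale after adding 32. Differences are therefore on the log2(signal + 32) scale, which understates the change of dim probe sets. The day 5 array had the lowest median signal of the 5, 117 against 130 to 149 on the day 3 and day 4 arrays. The 3' over 5' signal of beta-actin, which rises as RNA degrades, was 1.01 against 1.04 to 1.16. Across probe sets it correlated with the 4 arrays at r = 0.971 to 0.973, while those 4 correlated among themselves at 0.976 to 0.985. On the third principal component (8.51% of the variance) it lay at -28.7, apart from the 4 arrays at -2.27 to 18.1, and on the first component (35.8%) it lay among them, at 25.8 against 20.4 to 32.8. Macrophage markers were strong at day 5 (10 of 11 over a signal of 100, summed 54999 against 54031 to 64653). Summed markers of other cell types were low, at 1064 against 1153 to 1749 for osteoclasts, 934 against 1416 to 1743 for dendritic cells, 956 against 1256 to 1698 for stromal cells, 248 against 234 to 344 for T cells, 382 against 341 to 531 for B cells, 386 against 365 to 541 for neutrophils and 122 against 126 to 325 for erythroid cells. In these sums, 3 of 6 osteoclast and 4 of 7 dendritic cell markers had a signal over 100 at day 5. So did 2 of 6 stromal and 3 of 4 B cell markers. The counts were 1 of 5 for T cells (Cd4), 0 of 7 for neutrophils and 0 of 3 for erythroid cells.

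At day 5 the chemokine gene Ccl2 and the hypoxia gene Adm rose, and the heat shock gene Hspa1b and the macrophage gene Adgre1 fell. Of 12422 probe sets, 17 passed an adjusted p of 0.05 (0.137%), 7 higher (0.0564%) and 10 lower (0.0805%), and 1433 had an unadjusted p under 0.05 (11.5%). Taking for each gene its brightest probe set leaves 8251 genes, of which 6 rose (0.0727%) and 6 fell (0.0727%). Ccl2, Adm, Ero1a, Ptpn22, Wfs1 and Acp1 rose. Hspa1b, Zmat3, Smpdl3a, Pdxk, Sema4d and Adgre1 fell. The adjusted p was 0.049 for 8 of the 12 genes, so these calls lie at the edge of the threshold. Leaving out 1 array of days 3 and 4 gave 3 to 6 calls in place of 17, and leaving out RANKL day 5 replicate 1 or replicate 2 gave 30 each. Leaving out an array of control day 2, RANKL day 2 or RANKL day 4 gave 5 to 7. Ccl2 passed in each of 23 alternative fits and Adm in 21 of 22, while the other 10 genes passed in 4 to 18. In a fit to the control arrays alone, 29 probe sets passed. The median difference over genes was -0.083, with 40.5% of genes higher at day 5, and after quantile normalization that median was -0.009. The signal at day 5 lay above all 4 arrays for 1701 genes (20.6%) and below all 4 for 2690 (32.6%), and at an unadjusted p under 0.05, 449 were higher (5.44%) and 591 lower (7.16%). These shares are the background for the counts that follow, and they differ with signal. With all probe sets split into 4 equal bins by mean signal, 12.5% of the dimmest bin lay above all 4 arrays. In the brightest bin 31.7% did. The shares below all 4 arrays ran from 28.8% to 37.9% over the bins. After quantile normalization, 25.9% of genes lay above all 4 arrays and 26.3% below.

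**Figure D1:**
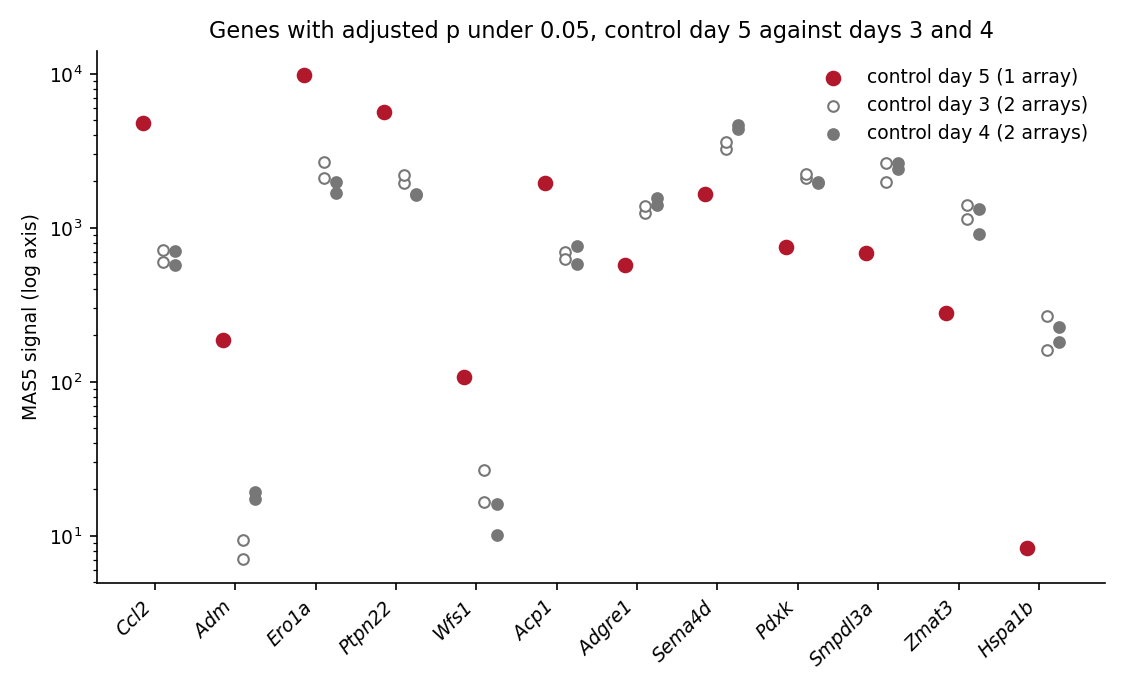
MAS5 signals (log axis) of the 12 genes with an adjusted p under 0.05, with the control day 5 array in red beside the 2 arrays of day 3 (open) and the 2 of day 4 (grey). In every gene shown the day 5 point lies outside the 4 others, for Ccl2 at 4786 against 577 to 718 and for Hspa1b at 8.35 against 161 to 267.

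Ccl2 encodes the chemokine that recruits monocytes. Its signal was 4786 at day 5, against 718 and 599 at day 3 and 710 and 577 at day 4. The day 5 array lay above the 4 others, which lay close together. Ccl2 rose by 2.82 ± 0.28 (SE, adjusted p = 0.00264, limma). Its signal was 302 on the day 1 control array, and 657 and 475 at day 2, so no other control array came near the day 5 level. Neighbouring genes of the same chemokine family also lay higher at day 5 but did not pass. Ccl7, a related monocyte attractant, had a signal of 454 at day 5, against 110, 61.4, 108 and 63.6 on the day 3 and day 4 arrays (2.07 ± 0.48, adjusted p = 0.123). Ccl4, macrophage inflammatory protein 1 beta, had 12019 at day 5, against 1972, 1621, 2275 and 1635 (2.67 ± 0.99, adjusted p = 0.326). Ccl3, its alpha partner, had 13863 at day 5, against 4968, 3977, 5111 and 3261. Ccl5 had 135 at day 5, against 21.9, 19.0, 33.2 and 16.8 (1.62 ± 0.28, adjusted p = 0.0539). All of these lay above the 4 arrays, and for Ccl5 the day 1 control array was higher still, at 156. Members of the chemokine list went both ways. Of its 25 represented genes, 9 lay above the 4 arrays (36%) and 8 below (32%), against 20.6% and 32.6% of all genes. At an unadjusted p under 0.05, 6 were higher and 1 lower. In the list 1 gene passed (Ccl2), and the median difference was -0.09, or 0.05 after quantile normalization. Cxcr4, a chemokine receptor, lay below the 4 arrays, at 24.4 against 75.1 to 120 (-1.18 ± 0.48, adjusted p = 0.356).

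Among inflammatory cytokines and enzymes, the largest differences were large in fold and wide in error. Ptgs2, the inducible cyclooxygenase of prostaglandin synthesis, had a signal of 1286 at day 5, against 155, 126, 125 and 164 on the day 3 and day 4 arrays (2.92 ± 0.80, adjusted p = 0.181). Il1b, interleukin-1 beta, had 244 at day 5, against 12.9, 4.32, 12.4 and 13.0 (2.70 ± 0.68, adjusted p = 0.149). Both genes were dim or moderate at days 3 and 4 and above every one of those arrays at day 5. Il1rn, which encodes the antagonist of the interleukin-1 receptor, had 4498 at day 5, against 1189, 577, 1354 and 754 (2.26 ± 0.46, adjusted p = 0.083). Nfkbiz, a nuclear regulator of NF-kB, had 2317 at day 5, against 504, 620, 489 and 544 (2.05 ± 0.87, adjusted p = 0.386). Tnf, tumour necrosis factor, had 9188 at day 5, against 2131, 4082, 2755 and 2416 (1.72 ± 0.62, adjusted p = 0.322). These 5 genes also lay above the 4 arrays.

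The errors of these genes draw on RANKL arrays that differ between replicates. At RANKL day 5 the Ptgs2 signal was 266 in replicate 1 and 7.93 in replicate 2, and the Il1b signal was 305 and 18.7. In the fit to the control arrays alone the adjusted p was 0.0116 for Ptgs2, 0.0045 for Il1b, 0.0045 for Ccl4 and 0.0249 for Nfkbiz, against 0.0672 for Tnf and for Il1rn. Of the 33 inflammatory genes represented, 16 lay above the 4 arrays and 7 below, 9 were higher and 2 lower at an unadjusted p under 0.05, and 0 passed. Those 2 were Icam1, an adhesion molecule for leukocytes (457 against 795 to 1311), and Socs1, an inhibitor of cytokine signalling (134 against 285 to 396). Their median difference was 0.23, against -0.083 over all genes. Phlda1 and Ifi202b completed the 15 largest rises without passing. Phlda1 had 778 against 133 to 220 (2.02 ± 0.48, adjusted p = 0.132), and Ifi202b, an interferon-induced member of a family of near-identical genes, had 1127 against 200 to 388 (2.00 ± 0.38, adjusted p = 0.07).

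Hypoxia and glycolysis genes were higher at day 5 with few exceptions. Adm, which encodes the vessel-dilating peptide adrenomedullin, had a signal of 186 at day 5, against 9.44 and 7.08 at day 3 and 17.5 and 19.2 at day 4. It was dim on all other control arrays, and rose by 2.27 ± 0.23 (adjusted p = 0.00322). Bnip3, a mitochondrial protein that takes part in mitophagy, had 1185 at day 5, against 285, 310, 327 and 287, and missed the threshold (1.87 ± 0.32, adjusted p = 0.0518). The glucose transporter gene Slc2a1 had 2542 at day 5, against 996, 1152, 1035 and 745 (1.36 ± 0.35, adjusted p = 0.159). Vegfa, the vessel growth factor, had 253 at day 5, against 86.0, 106, 72.3 and 94.0 (1.24 ± 0.39, adjusted p = 0.258). All 4 genes lay above the arrays of days 3 and 4.

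Further members, chosen after their values were seen, cover steps from glucose entry to pyruvate. The glycolytic enzymes Pfkp (1.12 ± 0.28), Hk2 (0.89 ± 0.22) and Pfkl (0.85 ± 0.26) and the pyruvate dehydrogenase kinase Pdk1 (0.88 ± 0.25) were each above the 4 arrays, with adjusted p between 0.142 and 0.247. P4ha1, a subunit of the collagen prolyl hydroxylase, had 1191 at day 5, against 680, 656, 641 and 692 (0.81 ± 0.17, adjusted p = 0.0869). Tpi1, Pgk1, Pkm, Aldoa and Ldha lay 0.51 to 0.60 higher, although another probe set of Aldoa was at -0.34 ± 0.32. Hk1, the hexokinase most tissues express, went the other way, at 4587 against 6838 to 8682 (-0.77 ± 0.46). Of the 20 represented genes of the list, 17 lay above the 4 arrays (the background is 20.6%) and 1 below. At an unadjusted p under 0.05, 12 were higher and 0 lower, and 1 passed (Adm). The list's median was 0.64, and it stayed between 0.56 and 0.80 over 24 settings. At day 5, 15 of the 20 lay above all 7 other control arrays, those of days 1 and 2 included, as did 1022 of the 8251 genes.

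The promoters of 4 genes are shown because the HIF-1 core, which reads ACGTG or GCGTG on either strand, can be searched for in the 250 bases before each RefSeq start. Capitals mark each match. Ero1a is not a member of the hypoxia list and was added after its values were seen. The windows come from GRCm38.p6 and are written on the strand of the gene: chr7:110627407-110627656 (plus strand) for Adm, chr14:45318573-45318822 (minus strand) for Ero1a, chr7:138909507-138909756 (minus strand) for Bnip3 and chr4:119108495-119108744 (plus strand) for Slc2a1.
Adm: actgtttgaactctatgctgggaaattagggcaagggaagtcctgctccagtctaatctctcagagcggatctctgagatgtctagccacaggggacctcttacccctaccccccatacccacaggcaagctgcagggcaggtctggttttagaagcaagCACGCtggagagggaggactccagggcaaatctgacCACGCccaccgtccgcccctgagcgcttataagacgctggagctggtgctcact
Ero1a: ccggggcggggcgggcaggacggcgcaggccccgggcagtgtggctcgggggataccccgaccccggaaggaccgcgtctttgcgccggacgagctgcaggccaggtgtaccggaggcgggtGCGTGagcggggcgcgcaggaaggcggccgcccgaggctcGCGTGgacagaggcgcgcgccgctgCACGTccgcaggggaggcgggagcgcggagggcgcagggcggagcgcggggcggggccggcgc
Bnip3: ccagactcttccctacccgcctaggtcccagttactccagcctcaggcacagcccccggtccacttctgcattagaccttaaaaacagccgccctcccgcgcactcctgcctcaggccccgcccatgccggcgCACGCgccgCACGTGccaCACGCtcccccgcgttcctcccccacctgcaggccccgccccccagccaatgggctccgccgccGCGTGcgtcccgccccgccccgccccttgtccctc
Slc2a1: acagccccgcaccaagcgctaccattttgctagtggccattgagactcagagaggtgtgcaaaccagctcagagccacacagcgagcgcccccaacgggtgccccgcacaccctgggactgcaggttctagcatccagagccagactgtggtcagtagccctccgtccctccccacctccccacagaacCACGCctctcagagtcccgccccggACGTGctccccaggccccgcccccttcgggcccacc
Adm held 2 matches, at 90 and 54 bases before the start, Ero1a held 3, Bnip3 held 5, of which 2 overlap on opposite strands, and Slc2a1 held 2. Such a match is common, as 12679 of 32851 promoter windows held one (38.6%). By gene, 17 of the 18 hypoxia and glycolysis genes with a window held a match in any of their windows (94.4%), against 11226 of all 27025 genes (41.5%). Tpi1 was the member with none. Many members have been studied as HIF targets, so this count describes a chosen list, and a match in these letters is no measure of binding in these cells.

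The other 4 genes that rose act in the endoplasmic reticulum or as phosphatases. Ero1a, the oxidase that makes disulfide bonds in the endoplasmic reticulum, had a signal of 9823 at day 5, against 2102, 2671, 1683 and 1984 on the day 3 and day 4 arrays (2.22 ± 0.36, adjusted p = 0.049), and its other probe set lay 2.49 ± 0.48 higher. Ptpn22, a phosphatase of immune cells, had 5608 at day 5, against 1963, 2187, 1664 and 1623 (1.59 ± 0.24, adjusted p = 0.049). Its other probe set was dim on all arrays of control days 3 to 5 (at most 4.42) and lay at -0.05. Wfs1, a membrane protein of the endoplasmic reticulum, had 108 at day 5, against 16.7, 26.8, 16.1 and 10.1 (1.51 ± 0.25, adjusted p = 0.049). Acp1, a small tyrosine phosphatase, had 1940 at day 5, against 692, 626, 582 and 761 (1.51 ± 0.20, adjusted p = 0.0196). Of its 5 other probe sets, 2 lay higher (1.81 and 1.01) and 3 lower, the brightest of which read 334 at day 5 against 317 to 467. Each of these 4 genes was above the 4 arrays on its named probe set.

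**Figure D2:**
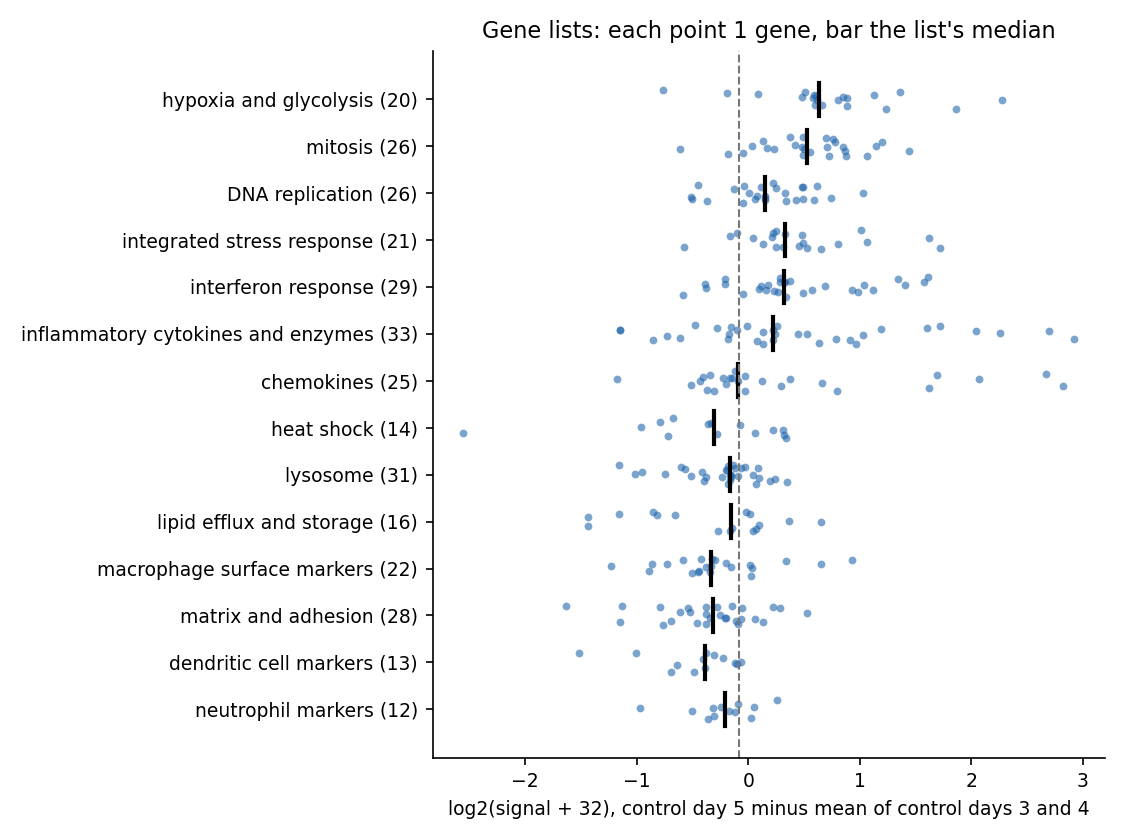
Differences on the log2(signal + 32) scale, control day 5 minus the mean of control days 3 and 4, for the members of 14 gene lists (number of represented genes in brackets). Black bars are list medians and the dashed line is the median of all 8251 genes at -0.083. The hypoxia and glycolysis median is 0.64 and the mitosis median 0.52, while the macrophage surface marker median is -0.34.

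Genes of mitosis lay higher at day 5, and none passed the threshold on its own. Bub1, a kinase of the spindle checkpoint, had a signal of 746 at day 5, against 218, 305, 165 and 375 on the day 3 and day 4 arrays (1.44 ± 0.34, adjusted p = 0.129), and its other probe sets disagreed with each other (1.75 and -0.61). Cdk1, the kinase that starts mitosis, had 2696 at day 5, against 1075, 1278, 1127 and 1154 (1.20 ± 0.26, adjusted p = 0.0906). Prc1, which bundles spindle microtubules, had 1720 at day 5, against 692, 746, 680 and 956 (1.14 ± 0.23, adjusted p = 0.083). Plk1, a mitotic kinase, had 2233 at day 5, against 838, 1108, 1204 and 1099 (1.06 ± 0.25, adjusted p = 0.132). In all 4, on the named probe set, the day 5 array was the highest of the 5. Other probe sets of Plk1 lay 0.72 and 0.20 higher, the latter inside the range of the 4 arrays. Of the 26 mitosis genes represented, 19 lay above the 4 arrays and 1 below (Racgap1), and 12 were higher and 1 lower at an unadjusted p under 0.05. The median was 0.52, and 0.45 to 0.72 over 24 settings. Mki67, a marker of dividing cells in the same list, had 847 at day 5, inside the range of 406 to 904 (0.55 ± 0.44, adjusted p = 0.698).

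The first days of culture give another point of comparison for the mitosis genes. Cdk1 had 3134 at day 1 and 3366 and 2758 at day 2, all above its day 5 signal of 2696. Plk1 had 2090, 1894 and 2229 on its named probe set, all at or below its day 5 signal of 2233. Its other probe sets did not repeat this. They read 1404, 1530 and 1843 against 831 at day 5, and 1496, 986 and 1180 against 917. In 22 of the 26 genes all 3 arrays of control days 1 and 2 lay above all 4 of days 3 and 4, as in 1179 of all 8251 genes. At day 5, 9 of the 26 were above the days 3 and 4 arrays and at or above the lowest array of days 1 and 2, as were 1445 of the 8251. DNA replication genes showed a smaller difference, with a median of 0.15 over 26 genes, 15 of them above the 4 arrays and 2 below, and 0 passed. Cdc45, which helps to unwind DNA at the fork, had 1147 at day 5, against 486 to 623 (1.03 ± 0.28, adjusted p = 0.181), while Pcna, the sliding clamp, had 2746 against 2934 to 3971 (-0.37 ± 0.25). Among growth arrest genes Gas6, a ligand of the TAM receptors, lay lower by 1.59 ± 0.32 (adjusted p = 0.083) and Ccng2 higher by 0.96 ± 0.26 (adjusted p = 0.184). Myc, which drives growth genes, was dim at days 3 and 4 (18.4 to 25.1) and had 79.6 at day 5 (1.07 ± 0.59, adjusted p = 0.538), far under its day 1 signal of 730.

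Genes of the integrated stress response, the programme set off by amino acid shortage and unfolded proteins through Atf4, lay higher at day 5, with 0 of 21 past the threshold. Of the 21, 14 were above the 4 arrays and 1 below, and the median was 0.33. Ddit3, the transcription factor CHOP, had a signal of 2268 at day 5, against 848, 578, 968 and 414 (1.72 ± 0.83, adjusted p = 0.464). Nupr1, a stress-induced chromatin protein, had 1325 at day 5, against 370, 356, 465 and 457 (1.62 ± 0.71, adjusted p = 0.403). Ddit4, an inhibitor of mTORC1, had 259 against 85.5 to 136, and Atf3 had 5145 against 1904 to 3423. Atf4 itself, named after its value was seen, had 13282 against 7090 to 8872 (0.81 ± 0.36, adjusted p = 0.41). In 12 of the 21 genes the control day 5 signal was above all 14 other arrays of the series, as in 624 of all 8251 genes. The unfolded-protein response list, which covers chaperones of the endoplasmic reticulum, had members on both sides of the 4 arrays, with a median of 0.08. Of its 16 genes, 7 lay above (43.75%, background 20.6%) and 5 below (31.25%, background 32.6%).

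Interferon response genes had a median of 0.32 over 29 genes, with 16 above the 4 arrays, 3 below and 0 past the threshold. Irf7, a transcription factor of that response, had a signal of 1593 at day 5, against 901, 165, 1038 and 378 (1.61 ± 0.82, adjusted p = 0.488). Its other probe set was inside the range, at 330 against 143 to 377 (0.25 ± 0.43). Isg15, a ubiquitin-like protein, had 1425 at day 5, against 761, 253, 922 and 398 (1.40 ± 0.57, adjusted p = 0.361). Replicate 1 was above replicate 2 at day 3 and again at day 4 for both genes, and the size of the difference moves with the replicate it is set against. Isg20 (1.57 ± 0.57) and Adar (1.35 ± 0.32) were the other large members, with adjusted p of 0.322 and 0.134. Proteasome subunit genes lay slightly higher (median 0.31, 14 of 25 above the 4 arrays and 1 below), led upwards by Psma5 (0.72 ± 0.26) and with Psmc5 lower (-0.73 ± 0.29). None of the 25 passed. The 10 reference genes had a similar median of 0.29, with 5 above the 4 arrays and 2 below. After quantile normalization the proteasome median was 0.27 and the reference gene median 0.08.

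Hspa1b was the gene of the heat shock list that passed. Hspa1b, the inducible Hsp70, had a signal of 8.35 at day 5, against 267 and 161 at day 3 and 181 and 227 at day 4, and fell by 2.56 ± 0.36 (adjusted p = 0.0303). No other array of the series was under 77.2. Its near-identical neighbour Hspa1a, which the probes may not separate from it, had 63.3 at day 5, against 133, 141, 116 and 143 (-0.79 ± 0.31, adjusted p = 0.35). Hspa8, the constitutive Hsc70, had 3205 at day 5, against 6655, 5411, 6703 and 6484 (-0.97 ± 0.25, adjusted p = 0.159), and the co-chaperone Dnaja1 had 671 against 907 to 1388 (-0.72 ± 0.26, adjusted p = 0.322). All 4 lay below the 4 arrays. Of 14 genes in the list, 7 were below the 4 arrays (the background is 32.6%) and 4 above, and 5 were lower and 0 higher at an unadjusted p under 0.05. The median was -0.31. Hsp90aa1 and Hspa9, also chaperones, lay 0.32 and 0.34 higher.

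Adgre1 was likewise the macrophage surface gene that passed. In such bulk samples, fewer cells of a type and less RNA per cell cannot be told apart. Adgre1, which encodes the macrophage antigen F4/80, had a signal of 574 at day 5, against 1243 and 1386 at day 3 and 1554 and 1405 at day 4, and fell by 1.23 ± 0.20 (adjusted p = 0.049). Its other probe set was dim and lay at 0.05. The day 5 signal of Adgre1 was close to the 493 and 523 of day 2. Fcer1g, the signalling chain of Fc receptors, had 361 against 552 to 842 (-0.86 ± 0.35, adjusted p = 0.359), and Clec4e, a receptor for mycobacterial lipids, had 222 against 342 to 628 (-0.89 ± 0.42, adjusted p = 0.456). Csf1r, the receptor for the growth factor of macrophages, had 8031 against 10960 to 14299 (-0.58 ± 0.23, adjusted p = 0.339). Fcgr1, the high-affinity IgG receptor, went the other way, at 2048 against 925 to 1272 (0.93 ± 0.65, adjusted p = 0.641). Of 22 genes, 12 lay below the 4 arrays and 2 above, 1 passed (Adgre1), and the median was -0.34. Itgam, the integrin CD11b, was inside the range of days 3 and 4, at 1242 against 1218 to 2278 (-0.38 ± 0.36, adjusted p = 0.749).

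None of the lysosome or cholesterol handling genes passed. More of them lay below the 4 arrays than above, as among all genes (32.6% below and 20.6% above). Lipa, the lysosomal acid lipase, had a signal of 1438 at day 5, against 2677, 3972, 3345 and 3174 on the day 3 and day 4 arrays (-1.16 ± 0.29, adjusted p = 0.149). Lgmn, the protease legumain, had 1952 at day 5, against 4270, 2597, 5486 and 4096 (-1.01 ± 0.26, adjusted p = 0.149). Ctsz (-0.96 ± 0.30) and Man2b1 (-0.74 ± 0.21), a cathepsin and a mannosidase, were below the 4 arrays too. Of 31 lysosome genes, 15 lay below the 4 arrays (48.4%) and 2 above (6.45%), with a median of -0.17. In the lipid efflux and storage list 7 of 16 lay below (43.75%) and 2 above (12.5%). At an unadjusted p under 0.05, 6 of that list were lower and 0 higher, and its median was -0.15. After quantile normalization the lysosome median was -0.28 and the lipid median -0.02. Abca1, the cholesterol exporter, had 153 at day 5, against 410, 396, 480 and 622 (-1.44 ± 0.63, adjusted p = 0.401), while its other probe set was inside the range, at 107 against 87.7 to 134. Apoc2, a lipoprotein cofactor, had 20.1 against 63.7 to 148 (-1.44 ± 0.47, adjusted p = 0.27), and Pltp, the phospholipid transfer protein, had 2986 against 4784 to 6817 (-0.85 ± 0.21, adjusted p = 0.138). Plin2, which coats lipid droplets, lay above the 4 arrays, at 9439 against 6407 to 8761.

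The other named falls have varied roles. Zmat3, a zinc finger protein that binds RNA, had a signal of 281 at day 5, against 1138, 1411, 911 and 1324 on the day 3 and day 4 arrays (-1.95 ± 0.30, adjusted p = 0.049). Smpdl3a, a phosphodiesterase, had 686 at day 5, against 2635, 1979, 2422 and 2649 (-1.76 ± 0.28, adjusted p = 0.049). Sema4d, a semaphorin, had 1653 at day 5, against 3230, 3628, 4654 and 4395 (-1.24 ± 0.20, adjusted p = 0.049). All 3 lay below the 4 arrays. For Pdxk, pyridoxal kinase, the 2 probe sets disagreed. The brighter one had 754 at day 5, against 2110, 2240, 1951 and 1995 (-1.42 ± 0.23, adjusted p = 0.049). The dimmer one had 425 at day 5, against 195, 212, 251 and 160 (0.96 ± 0.23, adjusted p = 0.136). The direction of the Pdxk transcript as a whole is therefore not settled by these arrays.

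A further 9 of the 15 largest falls did not pass. They were those of Serinc1, Vwf, Usp2, Rbks, St6gal1, Anpep, Pecam1, Timp2 and Prp2, at -1.85 for Serinc1 to -1.62 for Prp2, with adjusted p between 0.0769 and 0.329. Anpep, the surface peptidase CD13, had 754 at day 5, against 2408, 2466, 2428 and 2877 (-1.71 ± 0.37, adjusted p = 0.0998). Vwf, von Willebrand factor, had 8.30 at day 5, against 110, 107, 105 and 106 (-1.79 ± 0.35, adjusted p = 0.0769). The other probe set of Prp2 had the opposite sign (1.10 ± 0.56). Probe sets that passed without being their gene's brightest were those of Itgav (-2.69 ± 0.34, adjusted p = 0.019), Ctsb (-1.56 ± 0.22, adjusted p = 0.0341), F10 (-1.76 ± 0.27) and Atp13a3 (1.38 ± 0.22). In addition, 1 passing probe set is annotated to several genes, with 496 at day 5 against 1964 to 2249 (-2.04 ± 0.19, adjusted p = 0.00264, limma). No probe set had a smaller adjusted p in this comparison. The brightest probe set of Itgav, the integrin alpha v chain, lay lower as well (-1.14 ± 0.26, adjusted p = 0.121), at 656 against 1239 to 1920. A dim Itgav probe set was inside the range, at 50.8 against 47.5 to 63.1 (-0.04 ± 0.37). The brightest probe set of Ctsb, cathepsin B, was at 0.24 ± 0.26 and inside the range of the 4 arrays, while its 2 further probe sets were at -1.30 ± 0.34 and -1.01 ± 0.49.

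Some lower lists hold genes of other cell types, and their values stand beside the falls. Dendritic cell markers had a median of -0.39 (7 of 13 below the 4 arrays, 0 above), stromal and osteoblast markers -0.40 (6 of 12 below, 0 above) and neutrophil markers -0.21 (5 of 12 below, 0 above), with 0 passing in each. Some of their members had brighter signals, with Col1a2 at 758 and Csf3r at 336 at day 5. Other probe sets of Csf3r read 47.2 and 85.4 there. Whether these signals are specific to the transcripts was not tested. With all probe sets split into 4 equal bins by mean signal, the median difference was -0.08 in the dimmest bin, -0.15 and -0.14 in the middle ones and 0.0042 in the brightest, and quantile normalization brought all 4 to between -0.023 and 0.0041. After it, the dendritic median was -0.28, the stromal -0.33, the neutrophil -0.10, the macrophage surface -0.41, the lysosome -0.28 and the lipid efflux -0.02. The part of the array's lower median signal in the falls of dim genes was not tested. Antigen presentation genes (median -0.26, 10 of 20 below and 2 above) and matrix and adhesion genes (median -0.31, 13 of 28 below and 1 above) had no passing member. H2-Ab1, a class II chain, lay at -1.13 ± 0.32 (adjusted p = 0.206).

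**Figure D3:**
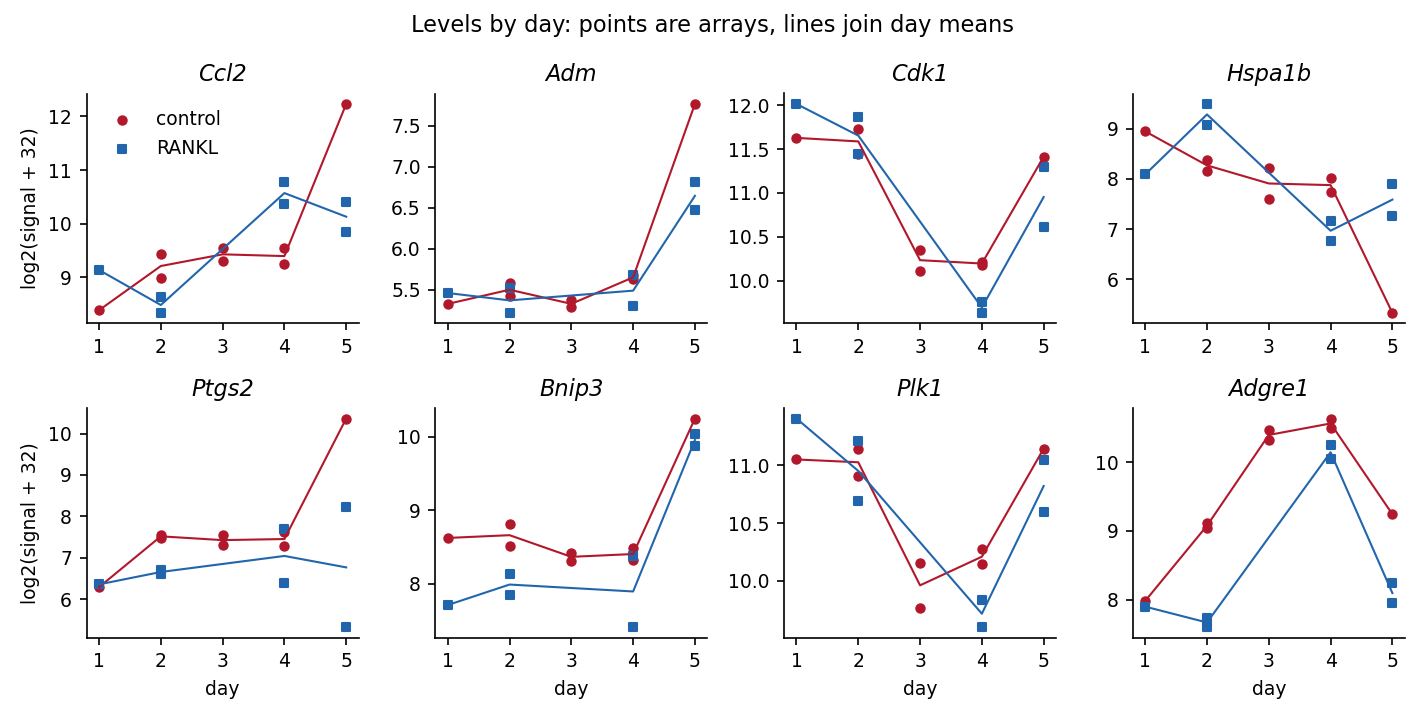
Levels of 8 genes, as log2(signal + 32), by day in control cells (red circles) and RANKL cells (blue squares), with points for arrays and lines through day means. Ccl2 and Ptgs2 stand highest on the control day 5 array, Adm and Bnip3 are higher at day 5 in both kinds of cell, and Cdk1 and Plk1 are high at days 1 and 2, low at days 3 and 4 and higher at day 5.

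The named genes were also set against the whole control course. For all 15 named rises the day 5 signal lay above the 7 other control arrays, and for 12 of them it lay above all 14 other arrays. Over all 8251 genes these counts were 1022 and 624, but the 15 had been chosen for lying above 4 of those arrays. The exceptions were Ptpn22, Il1b and Ifi202b, for which a RANKL array was higher. Of the 15 named falls, which were chosen for lying below the same 4, 9 lay below the 7 other control arrays and 8 below all 14, against 1670 and 1001 of all genes. In 11 of the 15 falls, the arrays of days 1 and 2 all lay below those of days 3 and 4, compared with 1279 of the 8251 genes. Zmat3, Smpdl3a and Timp2 had day 5 signals within the range of days 1 and 2. Zmat3 had 265 at day 1 and 281 and 421 at day 2, and Smpdl3a had 322, 1532 and 1092. Hspa1b, Sema4d and Pdxk were lower at day 5 than on any other array.

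Between day 3 and day 4 in control cells, 0 of 12422 probe sets passed (limma, smallest adjusted p = 0.117), and 574 had an unadjusted p under 0.05 (4.62%), against 1433 in the day 5 comparison. Ccl2 differed by -0.03 and Hspa1b by -0.03 between those days, and Adm by 0.32. A pseudocount of 100 gave 3 calls. These 2 comparisons share the day 3 and day 4 arrays.

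RANKL cells give the same step from day 4 to day 5 with 2 arrays a day. Ccl2 was the 1 probe set (0.00805%) whose step differed, by 3.28 ± 0.39 (control step minus RANKL step, adjusted p = 0.0388). Its step was 2.84 ± 0.30 in control cells and -0.44 ± 0.25 in RANKL cells, where the signal was 891 and 1326 at day 5, against 1723 and 1285 at day 4. That call was kept in 5 of 14 alternatives, and it was lost when any 1 array of control day 3, control day 4 or RANKL day 4 was left out (adjusted p between 0.0839 and 0.283). Without RANKL day 5 replicate 1, 29 probe sets passed. At an unadjusted p under 0.05, 1230 probe sets differed (9.9%).

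**Figure D4:**
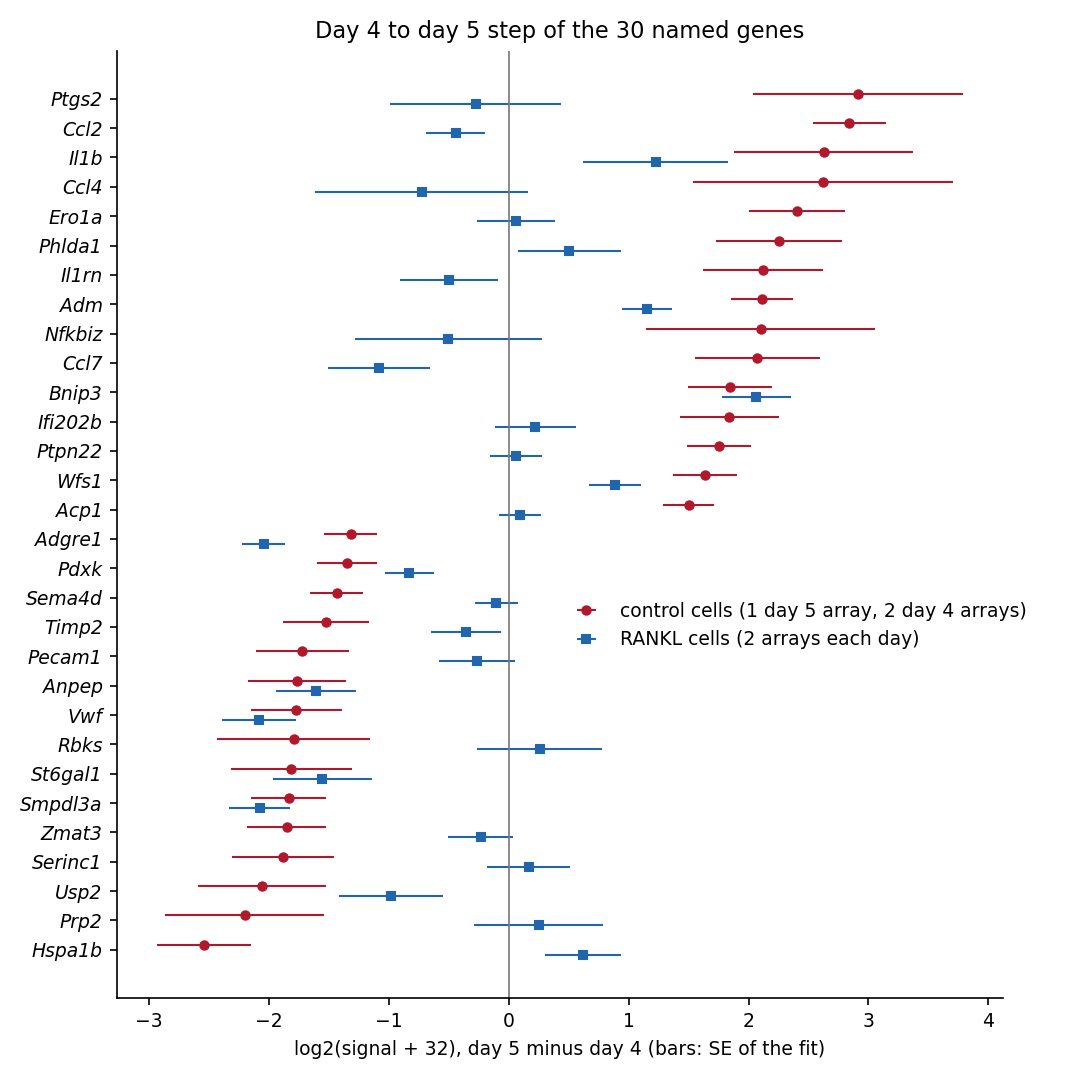
Step from day 4 to day 5, on the log2(signal + 32) scale with the SE of the fit, for the 30 named genes in control cells (red) and RANKL cells (blue). The Ccl2 step is 2.84 in control cells and -0.44 in RANKL cells, while Bnip3, Smpdl3a, Vwf and Adgre1 step the same way in both.

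Some of the named genes passed in the RANKL step with the sign of the control step. In RANKL cells the step of Bnip3 was 2.06 ± 0.29 (adjusted p = 0.012), and in control cells it was 1.85 ± 0.35. Adm rose by 1.15 ± 0.21 in RANKL cells (adjusted p = 0.044), with signals of 81.0 and 56.8 at day 5, against 7.45 and 19.3 at day 4. Smpdl3a (-2.08 ± 0.26), Vwf (-2.08 ± 0.31) and Adgre1 (-2.04 ± 0.18) fell in RANKL cells, where 79 probe sets passed for that step (0.636%). Of the 30 named genes these 5 passed there. The hypoxia and glycolysis list had a median step of 0.80 in control cells and 0.28 in RANKL cells, the mitosis list 0.50 and 0.76, the inflammatory list 0.24 and -0.24, and the lysosome list -0.14 and -0.47. Whether the steps of these lists differ between the cells was not tested.

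Osteoclast genes of the panel did not pass in cells without RANKL. Acp5, tartrate-resistant acid phosphatase, had a signal of 43.5 at day 5, against 109, 62.8, 89.4 and 74.1 on the day 3 and day 4 arrays (-0.60 ± 0.40, adjusted p = 0.623), and 9370 and 12283 at RANKL day 5. Ctsk (-0.52 ± 0.29), Mmp9 (-0.54 ± 0.58) and Nfatc1 (-0.22 ± 0.41) did not pass either, with adjusted p between 0.534 and 0.884. The list of 20 osteoclast genes had a median of 0.03, with 3 above the 4 arrays and 4 below. At an unadjusted p under 0.05, 1 was higher and 2 lower. The higher one was Car2, a carbonic anhydrase, at 4592 against 2532, 2595, 1886 and 1482 (1.14 ± 0.21, adjusted p = 0.0642, limma). In RANKL cells the day 4 to day 5 step of Car2 was 1.58 ± 0.19 (adjusted p = 0.00556, limma). Irf8, a macrophage transcription factor that restrains osteoclast formation, lay at -0.21 ± 0.44 (adjusted p = 0.896). Dab2, an endocytic adaptor, had 3186 against 1989 to 2821 (0.49 ± 0.45, adjusted p = 0.744), and of its other probe sets 1 lay below the 4 arrays (-0.50 ± 0.31) and 1 inside their range.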

How the data were processed

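Probe set signals of 15 Affymetrix arrays were deposited by the authors as linear intensities made with MAS5, per the submitters' processing notes, with no version given in the sources used here. The 2% trimmed mean is 500 on each array, so they were scaled before deposit, and no further normalization was applied. Of 12488 probe sets, 66 control probe sets were left out, and 12422 were tested with no filter as log2(signal + 32). The annotation gives 1 gene for 10833, several for 396 and none for 1193, and for each of 8251 genes the brightest probe set (mean log2 value across the 15 arrays) stands for the gene.

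A model with 1 mean for each of 9 groups of treatment and day used every array (limma 3.58.1, R 4.3.3, lmFit and eBayes with an intensity trend), with 6 residual and 5.39 prior degrees of freedom. Tests were two-sided with Benjamini-Hochberg adjustment over all probe sets and a threshold of 0.05. The comparisons were control day 5 minus the mean of days 3 and 4, control day 4 minus day 3, and the day 4 to day 5 step in control cells minus that in RANKL cells. The procedure was tested on simulated data. The number of arrays limits the precision.

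The members and the 36 gene lists (801 genes, 658 represented) were chosen with earlier results of these data known. Genes were named by a rule: the 15 largest rises and falls outside the range of the 4 arrays, passing ones first and then those with an unadjusted p under 0.05, up to 4 members of each list, passing genes of the other comparisons, and a panel (Acp5, Ctsk, Mmp9, Nfatc1, Irf8, Csf1r, Adgre1, Mki67, Myc, Dab2, Tnf, Itgam). Genes named outside the rule were chosen after their values were seen. Alternatives were quantile normalization, no trend, a pseudocount of 1 or 100, only the brighter 50% of probe sets, a replicate block, control arrays alone, arrays left out and other definitions. Promoters are RefSeq's on GRCm38.p6, and 18 of 20 represented hypoxia and glycolysis genes had a promoter window to search.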

Additional observations from a re-analysis of the deposited data

Results flagged for a closer look

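The step of Ccl2 from day 4 to day 5 differed between control cells and RANKL cells by 3.28 ± 0.39 on the log2(signal + 32) scale, which brings it here as an effect that differs between treatments by a test of the difference itself (limma, adjusted p = 0.0388). The control step rests on 1 array at day 5, with 4786 there against 710 and 577 at day 4, while the RANKL signals were 891 and 1326 at day 5 against 1723 and 1285 at day 4. Over 14 alternatives the difference was 3.00 to 3.56, with adjusted p between 0.00732 and 0.283, and it passed in 5.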

How the results depend on the processing

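For control day 5 against days 3 and 4, 17 probe sets passed. The count was 26 with a pseudocount of 1, 32 with 100, 31 after quantile normalization, 69 among the upper 50% of probe sets by signal (fewer tested), 10 without an intensity trend, 29 with control arrays alone, 36 with the 5 arrays alone, and 5 against day 4 or day 3 alone. Leaving out 1 array of a group with 2 gave 3 to 30, with 30 for either RANKL day 5 array. With the replicate number as a block 3 passed, and 3 passed with the 3' over 5' signal of beta-actin as covariate. The correlation of replicate differences, over all probe sets and 15 pairs of groups, ran from -0.17 to 0.12. These values show no general pairing by replicate number, but they cannot settle it for single genes. Irf7 and Isg15, for example, were higher in replicate 1 at both control day 3 and control day 4. For day 4 against day 3, a pseudocount of 100 gave 3 calls in place of 0. For the step difference, the count of 1 became 3 with a pseudocount of 1, 2 in the upper 50%, 0 after quantile normalization, without a trend and with the replicate block, and 0 to 29 with an array left out. The cause of these changes was not tested. The fits without arrays of other groups, and the covariate, were chosen after seeing the data. None of the 41 genes among the 15 largest rises, the 15 largest falls and the panel changed sign, and members named only from a list were not run. Of the gene results under alternatives, 762 kept their side of the threshold, 152 lost and 35 gained it. Only the genes passing in the main comparison and the Ccl2 step had a call to lose. The 762 therefore include genes that had no call, and do not measure how stable the calls were. Apart from Ccl2 and Adm, the passing genes kept their call in 4 to 18 alternatives each. Adm lost its call with a pseudocount of 1 (adjusted p = 0.0513). The single day 5 array sets the limit: no alternative can leave it out, and dim genes rest on signals near background.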

Other observations

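Values not described above concern other lists. Actb, a reference gene, lay lower at day 5 on its brightest probe set (-0.98 ± 0.42, adjusted p = 0.385). Another Actb probe set was inside the range of the day 3 and day 4 arrays (-0.0024 ± 0.54). The 10 reference genes had a median of 0.29, or 0.08 after quantile normalization. Ribosomal protein genes had a median of 0.09 over 20 genes and oxidative phosphorylation genes of -0.03 over 33, and the ribosomal median turned to -0.04 after quantile normalization. Complement genes had a median of -0.26 over 13 genes, and sterol and fatty acid synthesis genes of -0.19 over 20, with 0 passing in each. The fit to control arrays alone also called Odc1 (1.83), the rate-limiting enzyme of polyamine synthesis, Zfp36 (1.52), which destabilises cytokine mRNA, and Fasn (-1.11), fatty acid synthase, none of which passed in the fit to all 15 arrays.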
